A study of Homo sapiens with 16 samples.

Results

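The AP-1 family of FOS and JUN genes was examined in SW480 cells, an established line from a human colon tumour in which APC protein is truncated and beta-catenin constantly active. The 7 members were FOS, FOSB, FOSL1, FOSL2, JUN, JUNB and JUND. Every probe set of the array that the platform annotation pairs with exactly 1 of these symbols was taken, which gave 17 of the 54675 probe sets. FOS, FOSB, FOSL1 and JUNB each had 1 probe set, JUN and JUND had 4 each and FOSL2 had 5. A probe set is a group of short probes summarised into 1 log2 expression value, so a difference of 1 is a doubling of signal.

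AP-1 is a dimer of basic leucine zipper proteins that binds the DNA sequence TGACTCA. JUN proteins can pair with each other or with a FOS protein, while FOS proteins need a JUN partner. FOS, FOSB, JUN and JUNB are classical immediate early genes, switched on by growth factor signalling through MAP kinases. FOSL1 (FRA1) and FOSL2 (FRA2) are induced more slowly and lack the strong activation domain of FOS. In intestinal tumour cells JUN and FOSL1 have been described as targets of beta-catenin, and AP-1 shares many enhancers with TEAD factors and their partners YAP and TAZ.

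The 16 arrays fell into 4 groups of 4, with replicates lettered A to D. Control cells (siGFP) carried an empty vector stably and received a control siRNA. The siTAZ and sibcat cells also carried an empty vector and received an siRNA against TAZ (gene WWTR1) or beta-catenin (gene CTNNB1). The APC cells stably carried a vector for wild-type APC, the scaffold that marks beta-catenin for destruction, and received the control siRNA, so all groups were transfected with an siRNA. All were grown in serum with insulin and hydrocortisone, and the labels name no other stimulus. The labels do not say how long after transfection RNA was taken, how many siRNAs were used, or whether the APC cells are 1 clone. They call the replicates biological without naming separate cultures, so the p-values cover the variation among these 16 samples only, and that variation may be technical.

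WWTR1 was left at 9.66% of control in siTAZ cells and CTNNB1 at 12.9% in sibcat cells. WWTR1 was higher in sibcat (162%) and APC cells (165%), and CTNNB1 was lower in APC cells (77.1%; limma adjusted p = 0.0183). The brightest APC probe set differed by 0.08 in APC cells (limma adjusted p = 0.742), while 2 of 5 APC probe sets rose. Of 8 colon epithelium markers 7 lay at or above the median of all values, 5.09, in every group, and KRT20 did not (at most 2.88); 5 of the 8 fell in APC cells (KRT8 by 0.52), 1 rose and 2 fell in siTAZ (CDH1 by 1.13) and 2 rose and 1 fell in sibcat cells (VIL1 by 1.02 and CDX2 by -0.97). Of all 19775 genes, each by its brightest probe set, 15.2% rose and 11.8% fell in siTAZ cells. The shares were 17.1% and 15.8% in sibcat and 15.0% and 15.7% in APC cells. Of 11 markers of fibroblasts, endothelium and leukocytes only CD14 passed the test against control, rising by 0.59 in siTAZ, 1.63 in sibcat and 0.48 in APC cells. The leukocyte marker PTPRC stayed between 3.01 and 3.15. However, 3 of 5 fibroblast and 1 of 3 endothelium markers lay at or above the median in every group, with COL1A1 means of 6.83 to 6.99. CD14 reached 6.24 in sibcat cells. The ACTB control probe sets gave a signal difference between the 3' and 5' ends, which grows as RNA is degraded or labelled incompletely, of 2.05 ± 0.159 (SD, n = 4) in control, 2.56 ± 0.386 in siTAZ, 2.30 ± 0.242 in sibcat and 2.08 ± 0.323 in APC arrays. In every group it was larger in replicates A and B than in C and D. Arrays have no read depth, so precision depends on the 4 arrays per group.

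The proximal promoters of FOS, FOSL2 and JUN are shown, which were called lower in APC cells by their brightest probe sets. JUND was also called lower there on its brightest probe set (-0.22), and its promoter is not shown. The promoter sequences shown differ in the exact AP-1 and cAMP response type motifs they hold. Each runs from 250 bases before to 50 bases after the RefSeq start in GRCh38.p14, 5′ to 3′ on the strand of the gene, with motif matches in capitals. The FOS window is chr14:75278578-75278877 on the plus strand, the FOSL2 window chr2:28392608-28392907 on the plus strand and the JUN window chr1:58783998-58784297 on the minus strand.
FOS: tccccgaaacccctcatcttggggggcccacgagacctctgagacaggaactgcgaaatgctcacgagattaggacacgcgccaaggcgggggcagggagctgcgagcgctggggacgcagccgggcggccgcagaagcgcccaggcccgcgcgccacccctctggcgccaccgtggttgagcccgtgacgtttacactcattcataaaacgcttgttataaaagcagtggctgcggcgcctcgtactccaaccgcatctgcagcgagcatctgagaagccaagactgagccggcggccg
FOSL2: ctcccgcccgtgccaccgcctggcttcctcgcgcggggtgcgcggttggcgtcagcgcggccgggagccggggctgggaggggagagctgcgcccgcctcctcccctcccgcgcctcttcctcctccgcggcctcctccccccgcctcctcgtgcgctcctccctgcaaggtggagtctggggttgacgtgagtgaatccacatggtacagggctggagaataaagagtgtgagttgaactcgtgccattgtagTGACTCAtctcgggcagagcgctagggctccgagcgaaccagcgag
JUN: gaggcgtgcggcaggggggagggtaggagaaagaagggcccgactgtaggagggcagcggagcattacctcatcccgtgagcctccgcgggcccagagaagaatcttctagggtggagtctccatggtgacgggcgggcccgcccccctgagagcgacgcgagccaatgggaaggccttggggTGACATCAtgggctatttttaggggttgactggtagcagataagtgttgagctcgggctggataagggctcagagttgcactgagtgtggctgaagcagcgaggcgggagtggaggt

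Promoter windows were matched for 6 of the 7 members and searched on both strands for the AP-1 site TGACTCA, the CRE TGACGTCA, the related JUN-type site TGACATCA, the TEAD motif GGAATG, the TCF motif CTTTGA and the CArG box bound by SRF. The FOSL2 window held TGACTCA at positions 5 to 11 counted from the start, a motif found in 4.95% of 35116 promoter windows. The JUN window held TGACATCA from -67 to -60 (2.61% of windows). The JUND window held TGACGTCA from -200 to -193 (1.85% of windows), and the JUNB window held CTTTGA from -217 to -212 (12.9% of windows). The FOS and FOSB windows held none of these letters, and no member window held GGAATG (14.0% of windows) or a CArG box (1.29%). Sites outside the windows and variants of these motifs were not searched, so such elements may still be present. The matches did not overlap each other.

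FOS and FOSL2 were lowered in APC cells, FOS most, and so was JUN on 3 of its 4 probe sets. FOS was also lower in siTAZ and sibcat cells. FOSL1 and JUND, by contrast, were higher in siTAZ and sibcat cells than in control, JUND on 1 of its 4 probe sets. On that probe set JUND was lower in APC cells (-0.22), but not as the mean of its probe sets (0.04). FOSL2 was higher in both knockdowns on 1 of its 5 probe sets, calls that were lost as the mean of all 5. The FOSL1 rise in sibcat cells was near the threshold (limma adjusted p = 0.0431), and those arrays overlapped the controls. JUN, on 2 of its 4 probe sets, JUNB and dim FOSB were higher in siTAZ cells. In these bulk samples fewer cells expressing a gene and less RNA per cell cannot be told apart. The 3 comparisons with control use the same 4 control arrays.

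**Figure D1:**
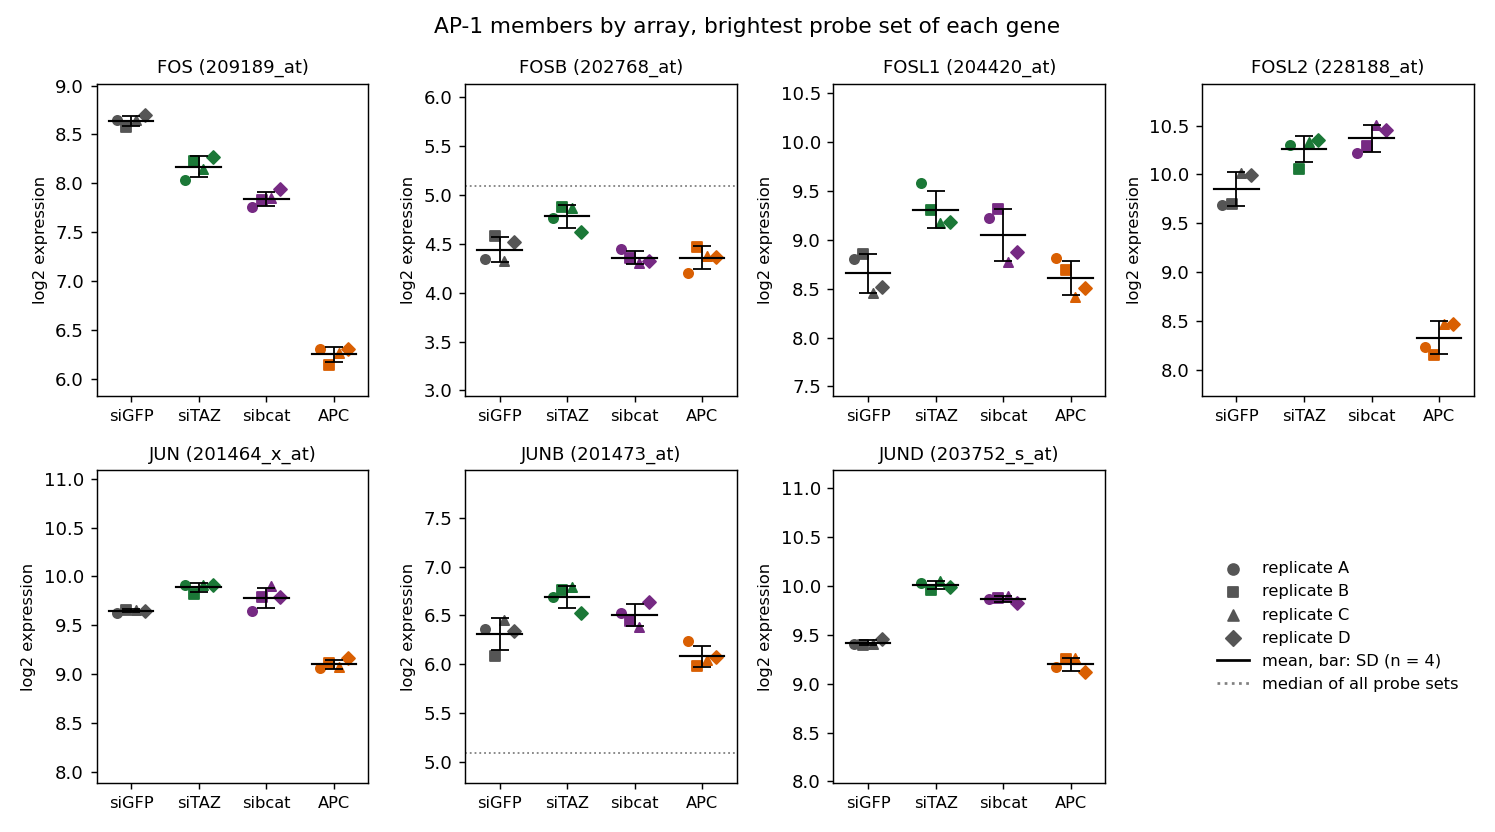
Log2 expression of the brightest probe set of each member in every array, by group; symbols mark replicates, horizontal lines the mean and bars the SD (n = 4), and the dotted line the median of all values. Each panel spans the same 3.2 log2 units; FOS and FOSL2 drop furthest in APC cells, to means of 6.25 and 8.33.

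FOS, the founding member and a marker of recent MAP kinase and serum response signalling, stood at 8.65, 8.58, 8.65 and 8.70 in control arrays A to D. It read 8.03, 8.23, 8.15 and 8.27 in siTAZ arrays and 7.76, 7.83, 7.85 and 7.94 in sibcat arrays. The APC arrays read 6.30, 6.14, 6.26 and 6.30. No 2 groups overlapped, and the order from control through siTAZ and sibcat to APC held for every array. FOS fell by 2.39 (SE 0.0656) in APC cells, leaving 19.0% of the control signal (limma adjusted p = 2.61e-14). Of all probe sets 0.353% differed from control by as much in APC cells. In sibcat cells FOS fell by 0.80, to 57.4% (adjusted p = 5.59e-08), and in siTAZ cells by 0.47, to 71.9% (adjusted p = 3.72e-05). The exact two-sided permutation p was 0.0286 in each case, the smallest that 4 against 4 arrays can give. The neighbours in this order also differed: FOS was higher in siTAZ than in sibcat cells by 0.33 (95% interval 0.19 to 0.46, adjusted p = 0.00094) and lower in APC than in sibcat cells, with a difference of -1.59 (adjusted p = 5.16e-12).

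FOSL2 gave signals on 5 probe sets that split by brightness. Its brightest, 228188_at, read 9.69, 9.70, 10.01 and 9.99 in control and 8.23, 8.15, 8.47 and 8.47 in APC arrays. The next, 225262_at, read 9.69, 9.59, 9.76 and 9.71 in control and 8.40, 8.52, 8.53 and 8.29 in APC arrays. On both, every APC array was lower than every array of any other group. FOSL2 fell in APC cells by 1.52 (SE 0.104, adjusted p = 4.48e-09) and by 1.25 (SE 0.0658, adjusted p = 1.31e-10) on these, and by 1.26 (SE 0.0897) on 218880_at, which leaves 34.9% to 42.0% of the control signal. The dim probe set 205409_at fell by 0.28 (adjusted p = 0.00421), and 218881_s_at differed by -0.18 (adjusted p = 0.173).

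In the knockdowns FOSL2 rested on 1 probe set. On 228188_at the siTAZ arrays read 10.30, 10.06, 10.33 and 10.35 and the sibcat arrays 10.22, 10.29, 10.51 and 10.46, all above the control arrays. FOSL2 rose there by 0.41 in siTAZ (adjusted p = 0.00762) and by 0.52 in sibcat cells (adjusted p = 0.000882). On 225262_at the differences were -0.09 (95% interval -0.23 to 0.05) and 0.16 (0.02 to 0.30), and neither passed (adjusted p = 0.429 and 0.0908); the second passed with dim probe sets filtered out (adjusted p = 0.0382). As the mean of its 5 probe sets FOSL2 differed by 0.09 in siTAZ cells (adjusted p = 0.251) and by 0.14 in sibcat cells (adjusted p = 0.061), so both calls ended. FOSL2 in APC cells stayed past the threshold by that measure, with a difference of -0.90.

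FOSL1, whose protein FRA1 is common in invasive carcinoma cells, went the opposite way to FOS in the knockdowns. Control arrays read 8.80, 8.86, 8.46 and 8.52, siTAZ arrays 9.58, 9.31, 9.17 and 9.18. The sibcat arrays read 9.22, 9.32, 8.77 and 8.88 and the APC arrays 8.81, 8.69, 8.42 and 8.51. All siTAZ arrays were above all control arrays, whereas sibcat and APC arrays overlapped the controls. FOSL1 rose by 0.65 (SE 0.135) in siTAZ cells, to 157% of control (adjusted p = 0.00173). It rose by 0.39 in sibcat cells (SE 0.135, adjusted p = 0.0431). In APC cells it differed by -0.05 (95% interval -0.34 to 0.23, adjusted p = 0.841).

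FOSL1 also varied with the replicate letter. Replicates A and B exceeded C and D in every group, by 0.34 in control, 0.27 in siTAZ, 0.45 in sibcat and 0.29 in APC arrays. Shifts of that size between A, B and C, D were seen for 8.24% of all probe sets in control, 9.18% in siTAZ, 2.31% in sibcat and 11.9% in APC arrays. FOSL2 on 228188_at moved the other way, lower in A and B than in C and D by 0.16 to 0.30, again without overlap in any group. The ACTB measure moved with the same letters. With that measure as a covariate FOSL1 differed by 0.33 in siTAZ cells (adjusted p = 0.0274) and by 0.23 in sibcat cells (adjusted p = 0.0545), which ended the sibcat call. Within A and B alone FOSL1 was higher by 0.62 in siTAZ and 0.44 in sibcat cells, and within C and D alone by 0.68 and 0.33, with all 4 past the threshold. With the replicate block the SE for FOSL1 dropped from 0.135 to 0.0659. The sibcat call of FOSL1 was lost with the 2 groups fitted alone (adjusted p = 0.0709), without control replicate C (0.32) or D (0.34) and without sibcat replicate A (0.33) or B (0.30).

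**Figure D2:**
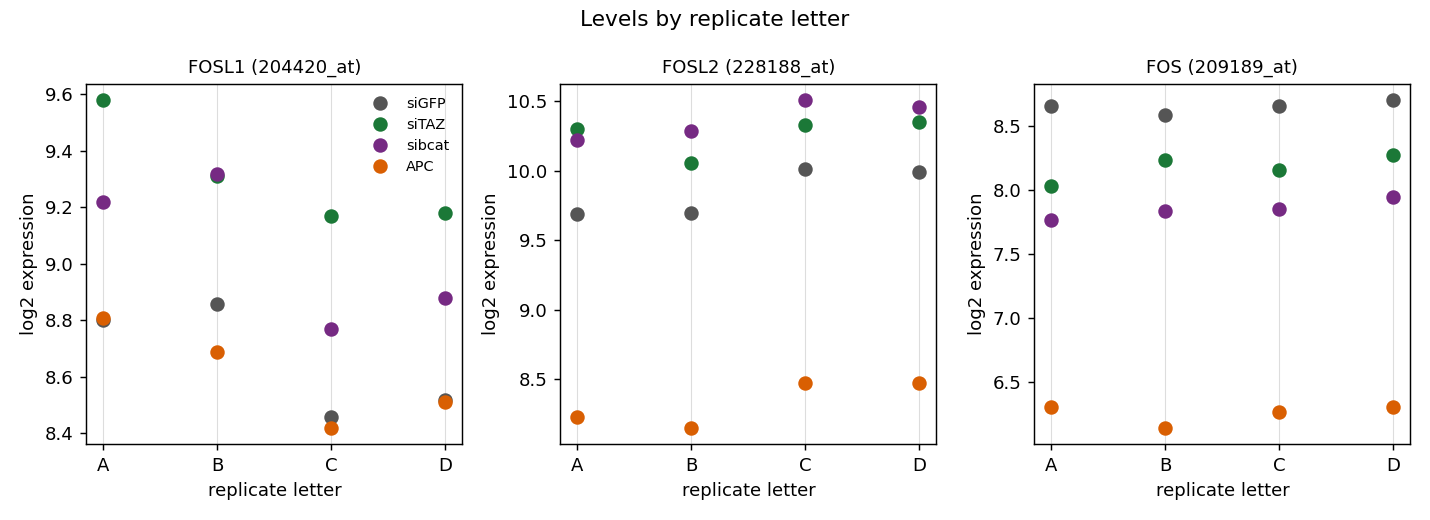
Log2 expression of FOSL1, FOSL2 (228188_at) and FOS by replicate letter, coloured by group; each point is 1 array and each panel has its own scale. FOSL1 is higher in A and B than in C and D in every group and FOSL2 lower, while FOS is -0.10 to -0.06 different between A, B and C, D.

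FOSB, a short-lived immediate early member, was dim. Its probe set read 4.34, 4.58, 4.32 and 4.52 in control and 4.76, 4.88, 4.87 and 4.62 in siTAZ arrays. The sibcat arrays ran from 4.30 to 4.45 and the APC arrays from 4.20 to 4.47. All values lay below the median of 5.09. FOSB rose by 0.34 in siTAZ cells (SE 0.0804, adjusted p = 0.00469) and differed by -0.08 in both other groups, without passing the test. The siTAZ call was lost in replicates A and B alone (0.36, limma adjusted p = 0.137) and in C and D alone (0.33, adjusted p = 0.0728).

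JUN, a strong transcriptional activator, was measured by 4 probe sets. The brightest, 201464_x_at, read 9.62, 9.66, 9.66 and 9.65 in control and 9.06, 9.11, 9.07 and 9.16 in APC arrays. It read 9.91, 9.82, 9.91 and 9.91 in siTAZ arrays and 9.65, 9.79, 9.90 and 9.79 in sibcat arrays. The siTAZ arrays lay above and the APC arrays below all control arrays, and the sibcat arrays overlapped the controls at their lower end. JUN fell in APC cells by 0.55 (SE 0.0583, adjusted p = 1.31e-06) on this probe set, by 0.47 on 201465_s_at and by 0.41 on 201466_s_at. The dimmer 213281_at, the JUN probe set whose suffix does not mark it as able to pick up related transcripts, differed by -0.17 (adjusted p = 0.258), so the JUN call in APC cells ended without such probe sets.

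In siTAZ cells JUN rose by 0.24 on 201464_x_at (SE 0.0583, adjusted p = 0.00601) and by 0.46 on 213281_at (adjusted p = 0.00223). Both calls were lost in replicates A and B alone (limma adjusted p = 0.21 and 0.121), and that of 201464_x_at also in C and D alone (adjusted p = 0.0549). The other JUN probe sets, 201465_s_at and 201466_s_at, differed by 0.27 and 0.22 and missed the threshold (adjusted p = 0.0504 and 0.0586). Both passed with dim probe sets filtered out (adjusted p = 0.0265 and 0.0278), 201466_s_at also with the replicate block (adjusted p = 0.0202), and 201465_s_at also without control replicate A or siTAZ replicate D (0.31 each). In sibcat cells the JUN probe sets differed by 0.07 to 0.22 and 0 of 4 passed in limma, while 2 had an unadjusted p below 0.05. JUN on 201464_x_at passed there with the trended, robust variance model (adjusted p = 0.0474), without sibcat replicate A (0.18, adjusted p = 0.0329) and as the mean of the 4 probe sets (0.14, adjusted p = 0.0212).

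JUNB, a weaker activator that can oppose JUN, read 6.36, 6.08, 6.45 and 6.34 in control and 6.69, 6.76, 6.79 and 6.53 in siTAZ arrays. The sibcat arrays read 6.52, 6.44, 6.38 and 6.64 and the APC arrays 6.24, 5.98, 6.04 and 6.07. Only the siTAZ arrays were clear of the controls. JUNB rose by 0.39 in siTAZ cells (SE 0.0886, adjusted p = 0.00403). JUNB lost this call in replicates C and D alone (0.26, limma adjusted p = 0.18). It differed by 0.19 in sibcat cells (95% interval 0.00 to 0.37, adjusted p = 0.148) and by -0.23 in APC cells (-0.41 to -0.04, adjusted p = 0.0793). The APC difference of JUNB passed with array weights (-0.29, adjusted p = 0.0172), with dim probe sets filtered out (adjusted p = 0.045), and without control replicate B (-0.30, adjusted p = 0.0137) or APC replicate A (-0.28, adjusted p = 0.0411).

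JUND, a JUN gene expressed in resting as well as growing cells, was bright on 203752_s_at only. There the control arrays read 9.41, 9.40, 9.41 and 9.46 and the siTAZ arrays 10.03, 9.96, 10.05 and 9.99. The sibcat arrays read 9.87, 9.88, 9.90 and 9.83 and the APC arrays 9.17, 9.25, 9.26 and 9.12. The 4 groups did not overlap, with siTAZ highest and APC lowest. JUND rose by 0.59 in siTAZ (SE 0.0523, adjusted p = 2.77e-07) and by 0.45 in sibcat cells (adjusted p = 3.58e-06), to 150% and 137% of control. It fell by 0.22 in APC cells (adjusted p = 0.00435). The other 3 JUND probe sets had means of 3.51, 4.74 and 5.32 over all arrays, near or below the median of all values, and 0 of them passed in any comparison in limma, with 1 unadjusted p below 0.05 among their 18 tests. The suffixes _s and _x mark probe sets that can also pick up related transcripts, and all 4 JUND probe sets and 3 of the 4 JUN probe sets carry them. As the mean of all its probe sets JUND differed by 0.04 in APC cells (adjusted p = 0.683), which turned the direction. By that mean the rises of JUND were 0.22 in siTAZ and 0.15 in sibcat cells, both still past the threshold.

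**Figure D3:**
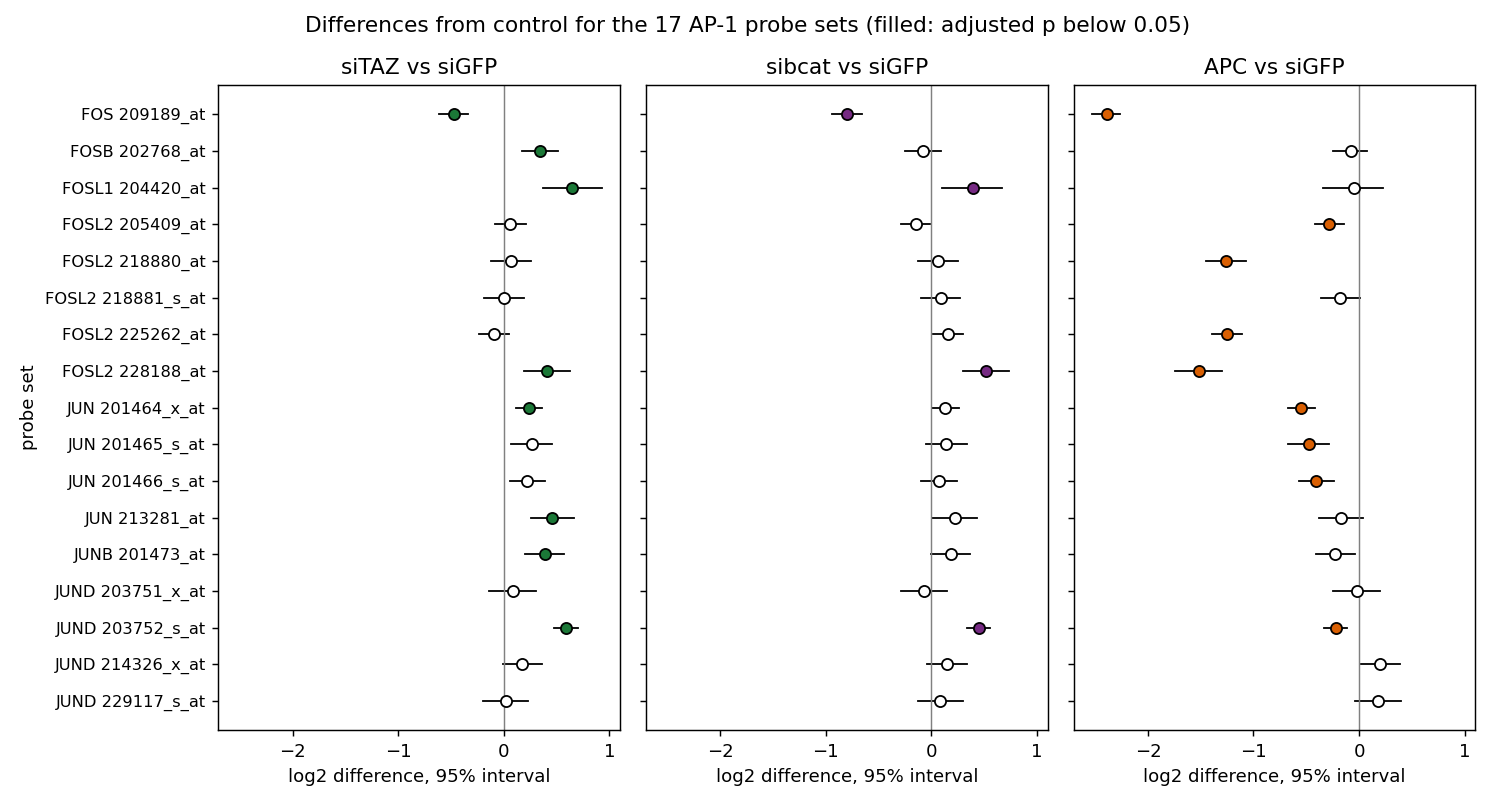
Log2 difference from control of the 17 AP-1 probe sets in siTAZ, sibcat and APC cells, with the 95% interval from the limma fit (4 arrays per group); filled points had an adjusted p below 0.05. In APC cells the filled points lie left of 0, from -0.22 to -2.39; in siTAZ and sibcat cells FOS is the filled point left of 0.

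Counted over probe sets, APC cells had 9 of 17 member probe sets lower and 0 higher. Of all 54613 probe sets tested 11.3% were called lower and 12.7% higher. FOSL2 gave 4 of the 9 and JUN 3. The siTAZ cells had 7 higher and 1 lower (10.5% and 9.78% of all), and the sibcat cells 3 higher and 1 lower (13.4% and 12.2% of all). In limma, also with the trended, robust variance model, 0 member probe sets rose in APC cells, and 1 had an unadjusted p below 0.05 upward. That was the dim JUND probe set 214326_x_at (0.20, adjusted p = 0.109), whose APC arrays lay above all controls. The median difference of the member probe sets was 0.22 in siTAZ, 0.13 in sibcat and -0.23 in APC cells, against 0.007, 0.002 and 0.022 over all probe sets. With each gene taken by its brightest probe set, 6 of 7 members rose and 1 fell in siTAZ cells (15.2% and 11.8% of all 19775 genes), 3 rose and 1 fell in sibcat cells (17.1% and 15.8%), and 4 fell in APC cells (15.7%, with 15.0% higher). Falls or rises of 1 or more on the log2 scale were seen for 4 member probe sets in APC cells (2.69% of all) and for 0 in siTAZ (1.25% of all) and sibcat cells (2.13% of all).

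The groups were also compared with each other directly. Between siTAZ and sibcat cells few member probe sets differed: 3 of 17 were higher in siTAZ (12.9% of all) and 1 lower (13.9% of all). FOS was among the higher ones, as given above, and so was dim FOSB (0.43, adjusted p = 0.000522). FOSL2 was higher on 205409_at (0.21, adjusted p = 0.0232), a call lost with the trended, robust variance model and without siTAZ replicate A, sibcat replicate B or sibcat replicate D (0.17, 0.17 and 0.20), and lower on 225262_at (-0.25, adjusted p = 0.00783). FOSL1 was 0.26 higher (95% interval -0.02 to 0.55, adjusted p = 0.186); with the replicate block this passed (adjusted p = 0.0071). JUN on 213281_at was 0.24 higher and passed only with the replicate block (adjusted p = 0.0497), with array weights (0.27) or without sibcat replicate A (0.31). JUND on 203752_s_at was 0.14 higher (95% interval 0.03 to 0.25, adjusted p = 0.0638), although its arrays did not overlap; it passed with array weights (adjusted p = 0.0393) and with dim probe sets filtered out (adjusted p = 0.016).

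APC cells were lower than sibcat cells for 12 of 17 member probe sets (15.6% of all), 4 of them of FOSL2 and 4 of JUN. They were higher for 0 (16.0% of all), by limma with either variance model and at an unadjusted p below 0.05. FOSL2 on 228188_at differed by -2.04 (SE 0.104, adjusted p = 7.57e-11), a 4.11-fold lower signal, FOS by -1.59, JUN on 201464_x_at by -0.68, JUND on 203752_s_at by -0.67 and JUNB by -0.41. As the mean of its probe sets JUND differed by -0.12 and missed the threshold (adjusted p = 0.0892). FOSL1 differed by -0.44 (adjusted p = 0.0177), a call lost without sibcat replicate A or B or APC replicate C or D (-0.38, -0.35, -0.38 and -0.41). The FOSL2 probe set 218881_s_at (-0.26, adjusted p = 0.0301) was lost with the ACTB covariate (-0.24, adjusted p = 0.0572) and without sibcat replicate A or C or APC replicate C or D. FOSB had nearly the same level in both, with an interval from -0.17 to 0.17 for the difference.

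The siTAZ and APC cells differed for the most members. All 7 members were higher in siTAZ cells by their brightest probe set (21.4% of all genes). Of the 17 probe sets 13 were higher (15.5% of all) and 0 lower (16.9% of all), by limma with either variance model, and 0 were lower at an unadjusted p below 0.05. FOSL2 on 228188_at was 3.81-fold and FOS 3.78-fold higher (adjusted p = 1.1e-10 and 3.05e-13). JUND was 0.81 higher, JUN 0.63 to 0.79 on its 4 probe sets, FOSL1 0.70, JUNB 0.61 and dim FOSB 0.43. For the 13 probe sets the siTAZ arrays lay above all APC arrays, as for 15.4% of all probe sets.

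The genes whose pattern over the 16 arrays was most like that of each member were found among 12575 other genes at or above the median level. Likeness was the root mean square difference of log2 values taken from each gene's own control mean, so 0 would be an identical pattern. FOS was nearest to ZNF185 (0.194), LTBP2 (0.233) and KCNJ5 (0.258). ZNF185 differed from control by -0.56, -0.99 and -2.56 in siTAZ, sibcat and APC cells. Its order is that of FOS, which follows from how it was selected. FOSL2 was nearest to COL13A1, a transmembrane collagen (0.178), the kinase gene NUAK1 (0.185) and TENT5A (0.203). JUN lay nearest to BEX3 (0.0757), CKAP4 and ARF4, and JUND to TP53TG1 (0.0697), LOC100996740 and PRKAB2. FOSL1 lay nearest to SRPK2 (0.114), PHC2 and SETD5, JUNB to RLF (0.102), EGFL7 and ZNF791, and FOSB to CRTC3 (0.106), ZBTB33 and NSMCE3.

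Other bZIP proteins that pair with FOS or JUN, or compete with them, moved in both directions. Of 16 measured dimer partners 5 rose and 3 fell in siTAZ, 4 rose and 6 fell in sibcat and 3 rose and 5 fell in APC cells. For this list and the lists that follow, the shares over all genes were those given above for brightest probe sets. MAF, counted among the rises in all 3 groups (0.33, 0.40 and 0.32), was dim, with group means of 3.50 to 3.90, below the median level. The stress-induced repressor ATF3 fell in all 3, with differences of -0.68, -0.78 and -1.35 (SE 0.0675). BATF, a partner of JUN in immune cells, rose by 0.86 in siTAZ cells (SE 0.065, adjusted p = 3.87e-08), by 0.34 in sibcat and by 0.61 in APC cells. CREM, a cAMP-responsive factor, fell by 0.68 in siTAZ and 0.78 in sibcat cells. ATF4, which directs the amino acid stress response, fell in all 3 groups, with differences of -0.50, -0.70 and -0.68. DDIT3, an inhibitory partner in stress, differed by -0.55 in sibcat and by -1.61 in APC cells, both called. MAFF rose by 0.21 in siTAZ and fell by 0.73 in APC cells. The median over the list was 0.19 in siTAZ, -0.03 in sibcat and -0.02 in APC cells, against 0.015, 0.000 and 0.010 over all genes.

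Among 22 measured upstream kinases and transcription factors 8 rose and 3 fell in siTAZ, 7 rose and 6 fell in sibcat and 3 rose and 6 fell in APC cells, with medians of 0.04, 0.10 and -0.06. MAPK8, which encodes the JUN kinase JNK1, fell in all 3 groups, with differences of -0.47, -0.77 and -0.31 (adjusted p = 0.00157, 7.71e-06 and 0.0245). MAP3K1, a kinase above JNK, rose by 0.49 in siTAZ and by 0.17 in sibcat cells and fell by 0.45 in APC cells. ELK3, which binds with SRF at the FOS promoter, fell by 0.62 in siTAZ and by 0.76 in APC cells. MAP2K2, a kinase that activates ERK, rose by 0.45 in siTAZ and by 0.60 in sibcat cells. TEAD4 fell by 0.37 in sibcat cells, and MAP2K4 fell by 0.36 in APC cells.

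Of 11 measured genes for AP-1 protein stability or repression 4 rose and 2 fell in siTAZ, 3 rose and 0 fell in sibcat (0 also at an unadjusted p below 0.05 in limma and with the trended, robust variance model) and 1 rose and 3 fell in APC cells, with medians of 0.10, 0.11 and 0.08. FBXW7, a ubiquitin ligase subunit that targets JUN, rose by 0.90 in siTAZ cells (SE 0.131, adjusted p = 6.37e-05). The deubiquitinase gene USP28 rose by 0.50 in siTAZ and fell by 0.47 in APC cells, and DET1, part of a JUN-degrading ligase, fell by 0.51 in siTAZ and rose by 0.32 in sibcat cells. COP1 of the same ligase rose by 0.48 in siTAZ and by 0.23 in sibcat cells, and TCF25 rose by 0.33 in sibcat cells. In APC cells the AP-1 repressor JDP2 fell by 0.42 and DUSP1, which inactivates MAP kinases, by 0.35; DUSP1 also fell by 0.33 in siTAZ cells.

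Of 26 measured textbook AP-1 target genes 7 rose and 3 fell in APC cells (15.0% and 15.7% of all genes), with a median of 0.05, while 13 rose and 3 fell in sibcat (0.26) and 7 rose and 5 fell in siTAZ cells (0.07). MMP1, MMP3, MMP10, MMP13, IL6, SPP1 and IVL lay below the median level in every group. Counted among the rises from these dim genes were IL6 in APC cells (mean 4.17) and MMP1 in sibcat cells (mean 3.02). The chemokine gene CCL2 rose in all 3 groups, by 1.31 in siTAZ, 2.74 in sibcat and 2.89 in APC cells. PLAU, the urokinase gene, rose by 2.64 and 2.21 and the gelatinase gene MMP9 by 1.76 and 2.33 in sibcat and APC cells (adjusted p at most 4.43e-12). In siTAZ cells PLAU rose by 0.63 and MMP9 fell by 0.50. HMOX1, a haem-degrading enzyme, rose by 1.05 in siTAZ and by 0.64 in sibcat cells and fell by 0.50 in APC cells. The chemokine gene CXCL8 rose by 0.95 in siTAZ and fell by 0.40 in sibcat cells.

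Of 26 other immediate early genes measured, 17 fell, 1 rose and 8 did not pass in APC cells (15.7% of all genes fell and 15.0% rose), with a median of -0.33, against 11 higher and 5 lower in siTAZ (0.22) and 8 higher and 10 lower in sibcat cells (-0.15). In APC cells EGR3 differed by -2.39 (SE 0.111), CCN1 by -2.14 and GADD45B by -2.11. GADD45B also passed in siTAZ (-0.81) and sibcat cells (-0.23). In sibcat cells EGR1 differed by -2.15, EGR3 by -1.65 and TRIB1 by -1.17. EGR1 and TRIB1 were also lower in APC cells (-1.17 and -0.94), and TRIB1 was higher in siTAZ cells (0.43). In siTAZ cells the ERK phosphatase gene DUSP5 rose by 1.31 (0.90 in sibcat and -0.40 in APC cells, both called) and the orphan receptor gene NR4A3 by 1.26 (-0.58 in sibcat cells, called), while CCN1, a known YAP and TAZ target, fell by 0.97.

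**Figure D4:**
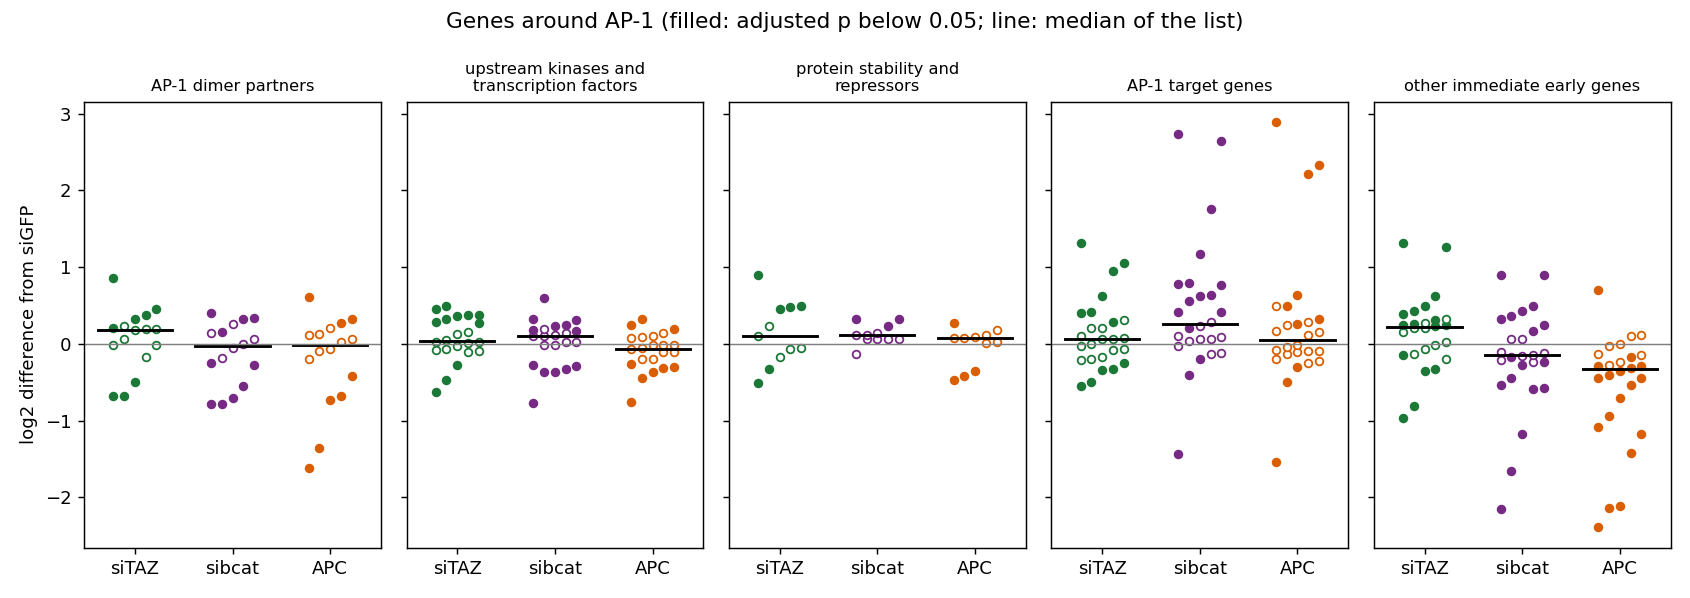
Log2 difference from control of each measured gene of the 5 lists around AP-1, by its brightest probe set, in siTAZ, sibcat and APC cells; filled points had an adjusted p below 0.05, lines mark list medians and horizontal position within a group has no meaning. The immediate early genes have their median at 0.22 in siTAZ cells and at -0.33 in APC cells.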

How the data were processed

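RNA from 16 samples of SW480 cells was hybridised to Affymetrix U133 Plus 2.0 arrays. The authors deposited 1 log2 expression value per probe set and array, made with RMA per the submitters' processing notes (version not given in the sources used here); base 2 was inferred from their range of 1.8 to 14.56. Quantile normalisation within RMA would hide a change in total RNA per cell. Of 54675 probe sets, 62 control probe sets were left out and 54613 entered 1 limma fit (limma 3.58.1, R 4.3.3; lmFit and eBayes, 4 group means, no block, no filter on dim probe sets). A probe set was called at a Benjamini-Hochberg adjusted p below 0.05 within each of 6 comparisons. The fit was tested on simulated data. The annotation pairs 41097 probe sets with 1 gene, 1801 with several and leaves 11777 unnamed here; listed genes without a probe set of 1 gene were not analysed here. Genes of lists were taken by their probe set with the highest mean. Named were all members, up to 3 called genes with the largest difference per list and comparison, WWTR1, CTNNB1 and APC, and the 3 genes most like each called member. Members, lists and tests were chosen with earlier results of these data known.

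Same-lettered replicates of different groups deviated together from their group means (24 pairs, r 0.12 to 0.40). Letters A and B, and C and D, also deviated together (0.06 to 0.36), and between A or B and C or D r ran from -0.44 to -0.08. The samples thus split into A and B against C and D, which is read from the data and not from the labels. The negative range is no separate evidence for this split, because deviations from a group mean cancel out within the group. Because the first 2 ranges overlap, they do not show that single letters pair the samples. No 2 arrays were identical. Alternatives were array centring, other probe set choices, a filter on dim probe sets, another variance model, the replicate block, an RNA quality covariate, array weights, the 2 groups alone, leaving out each array and, added after seeing the data, each pair of letters alone. Figures were drawn with matplotlib 3.10.9.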

Additional observations from a re-analysis of the deposited data

Results flagged for a closer look

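In 6 of 68 groups of 4 arrays examined, 1 array of an AP-1 probe set stood far from the other 3; chance gives about 1 in 20 such groups. JUN read 9.82 on 201464_x_at in siTAZ replicate B against 9.91 in each of the others, and 8.14 on 201465_s_at in the same array against 7.69 to 7.75. JUN on 201466_s_at read 7.32 in sibcat replicate B against 7.63 to 7.68. FOSL2 on 205409_at read 5.33 in siTAZ replicate A against 5.16 to 5.18. JUND on 203751_x_at read 5.70 in siTAZ replicate D against 5.30 to 5.34, and JUND on 203752_s_at read 9.46 in control replicate D against 9.40 to 9.41.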

How the results depend on the processing

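Of 1854 recomputed member differences 1774 kept their side of the threshold, and those called also kept their direction. A further 45 lost the call, 34 gained one and 1 reversed. The reversal was JUND on 203752_s_at in APC cells as the mean of its probe sets (0.04). Direction was compared only where the main or the alternative fit gave a call. Uncalled differences could change sign, as FOSL2 on 218880_at did in siTAZ cells against control (-0.09 to 0.23). Fewer calls held in every alternative that measured them. Against control 3 of 8 did for siTAZ, 2 of 4 for sibcat and 5 of 9 for APC. Against sibcat 0 of 4 did for siTAZ and 7 of 12 for APC, and 12 of 13 did for siTAZ against APC. The FOS falls in the 3 comparisons with control and the APC falls of FOSL2 on its 3 brighter probe sets passed in every alternative run. Without probe sets that can cross-hybridise, 9 member probe sets were left: 5 were called for APC against control and 7 for APC against sibcat. By brightest probe set 2 of 5 genes were called for APC against control. JUN and JUND were not counted there because their brightest probe sets were removed. JUN kept 1 other probe set, not called for APC against control, and JUND kept 0. In replicates A and B alone 5 probe sets were called for siTAZ and 5 for APC against control, and 0 probe sets and 0 genes for siTAZ against sibcat (limma, with 3 probe sets and 2 genes at an unadjusted p below 0.05); in C and D alone 5 probe sets and 4 genes were called for siTAZ against control. These fits, added after seeing the data, have fewer arrays. Leaving out single arrays gave 8 to 9 called probe sets for siTAZ, 3 to 4 for sibcat and 9 to 10 for APC against control, 3 to 5 for siTAZ and 10 to 12 for APC against sibcat, and 13 for siTAZ against APC. The replicate block gave 9, 4 and 9 against control, 6, 12 and 13 in the other comparisons, and changed no call of a member beyond the JUN and FOSL1 calls given above. Fits over genes give no probe set count. FOSB and 2 JUND probe sets lay below the median level in all groups.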

Other observations

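The genes below were chosen after their values were seen. The NR4A orphan receptor genes rose together in siTAZ cells, NR4A1 by 0.39, NR4A2 by 0.63 and NR4A3 by 1.26 (limma adjusted p = 0.00954, 0.0014 and 4.01e-07), although in control NR4A2 lay below the median level (4.58) and NR4A3 near it (5.16). In APC cells DUSP6, the ERK phosphatase gene, fell by 1.42 and IER5 by 1.08, beside falls of KLF6 by 0.70 and of ZFP36L1 by 0.44, whereas KLF4 rose by 0.70. IER5 also fell in siTAZ and sibcat cells, with differences of -0.35 and -0.53, whereas ZFP36L1 rose in them by 0.50 and 0.43 and KLF6 rose by 0.32 in sibcat cells. KLF4 also rose in siTAZ cells, by 0.25, and in sibcat cells, by 0.90.

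Of the AP-1 target genes, 3 chosen for opposite signs in the knockdowns are given here; PLAU, in contrast, rose in both, by 0.63 in siTAZ and 2.64 in sibcat cells. The receptor tyrosine kinase gene AXL fell by 0.55 in siTAZ and rose by 0.80 in sibcat cells, the urokinase receptor gene PLAUR fell by 0.34 and rose by 1.17, and the matrix gene TNC fell by 0.25 and rose by 0.77. The cyclin gene CCND1 went the other way, rising by 0.40 in siTAZ cells and differing by -1.44 in sibcat and by -1.54 in APC cells. Compared directly, siTAZ cells differed from sibcat cells by -1.35 for AXL, -1.51 for PLAUR, -1.02 for TNC and 1.84 for CCND1 (limma adjusted p = 1.68e-11, 4.42e-13, 6.59e-09 and 1e-12).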
